A study of Drosophila melanogaster with 6 samples.

Results

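The antennal odorant receptor genes examined here were Or59b and Or85a of the ab2 sensillum and Or22a, Or22b and Or85b of ab3. They were not taken as a full set for these sensilla, and Or33b was counted with receptors of other sensilla. These 5 genes were taken by their FlyBase symbols from the 17698 genes listed for each library. The rule uses no measured value, but the set was chosen with earlier results of these data known. Transcripts were counted by RNA-seq in whole antennae of female Drosophila melanogaster of 2 genotypes, whose age is not given in the sources used here. PCD-blocked flies were peb-Gal4/+;Or49a-GFP/UAS-p35, in which the Gal4 driver at peb switched on p35, a baculoviral inhibitor of the caspases that carry out programmed cell death (PCD). Control flies were peb-Gal4/+;Or49a-GFP/+ and lacked p35, so the driver and the Or49a-GFP reporter were shared by both genotypes. Each genotype had 3 libraries, 1 in each of 3 sample pairs. Each library pooled the antennae of about 350 flies, so values of single flies were averaged.

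The ab2 and ab3 sensilla are large basiconic hairs, each of which houses an A neuron and a B neuron that share the lymph of the hair. Each neuron type places a tuning receptor, together with the shared co-receptor Orco, in its cilium and sends its axon to its own glomerulus of the antennal lobe. During development of the antenna, some cells of the sensory lineages become neurons and others die by PCD, so the set of neurons in a hair depends on which cells are lost. Or59b is the receptor of the ab2 A neuron, which is known for its response to acetate esters such as methyl acetate. Or85a is a receptor of the ab2 B neuron, known for ethyl 3-hydroxybutyrate. Or22a, a receptor for fruit esters, and its tandem copy Or22b are both expressed in the ab3 A neuron, and Or85b, a receptor for ketones such as 2-heptanone, is expressed in the ab3 B neuron.

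All of these genes have 1 annotated transcript, and none shares exon sequence with another gene in the BDGP6 annotation. Or22a (FBgn0026398; chromosome 2L, 1520491 to 1522156) and Or22b (FBgn0026397; chromosome 2L, 1522697 to 1524257) lie 540 bp apart on the plus strand, with 4 exons each. Or85b (FBgn0037590; chromosome 3R, 8510077 to 8511358, minus strand) has 3 exons and lies 375 bp from Or85c. Or59b (FBgn0034865; chromosome 2R, 23470165 to 23471775, minus strand) lies inside a gene of the opposite strand, CG43795, and 524 bp from Or59c, and Or85a (FBgn0037576; chromosome 3R, 8321747 to 8323054, plus strand) lies inside the opposite-strand gene Poxm. Both have 3 exons. The host genes were counted at low levels: CG43795 averaged 7.47 ± 0.786 CPM (the standard library-size unit, here with TMM scaling of the totals) in PCD-blocked antennae and 3.67 ± 0.611 CPM in controls, and Poxm averaged 1.72 ± 0.394 CPM in PCD-blocked antennae and 1.35 ± 0.236 CPM in controls (SD, n = 3 each). CG43795 passed as higher with PCD blocked (a log2 fold change of 1.03 ± 0.13, SE; edgeR adjusted p = 0.000619), the direction opposite to that of Or59b, and Poxm did not pass. Or22a and Or22b are similar in sequence, and a read that matched both would have been lost or misassigned, so the split between them is uncertain.

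Libraries held 15588725 to 17808516 gene counts. Markers of the antenna were abundant. Orco averaged 3098 ± 25.3 CPM in PCD-blocked antennae and 3012 ± 54.0 CPM in controls (SD, n = 3 each; edgeR adjusted p = 0.382), and the lowest of 8 antennal marker genes, the co-receptor gene Ir8a, averaged 254 ± 3.50 CPM in PCD-blocked antennae and 274 ± 1.29 CPM in controls. Of the 8 markers, Ir25a (log2 fold change 0.45) and Obp28a (0.34) were higher, lush (-0.39), Obp19d (-0.44) and Ir8a (-0.11, a call lost in 4 of 10 alternative settings) were lower, and Orco, Obp83a and Obp83b did not pass. The list summed to 38100 to 39170 CPM in PCD-blocked antennae and 43550 to 44700 CPM in controls. Most of this difference was Obp19d, with 15530 ± 280 CPM in PCD-blocked antennae and 21060 ± 530 CPM in controls (SD, n = 3 each). Of 7 receptor genes listed as markers of the maxillary palp, the other olfactory organ of the head, Or46a passed the test (lower, a call lost with DESeq2). The list summed to 24.3 to 29.2 CPM in PCD-blocked antennae and 29.7 to 31.5 CPM in controls. Or46a made up most of it, with means of 19.7 CPM in PCD-blocked antennae and 25.9 CPM in controls. Of 8 photoreceptor genes 1 passed, trp (higher), and the sums were 16.2 to 19.0 CPM in PCD-blocked antennae and 8.34 to 9.59 CPM in controls. Its rhodopsin genes Rh3, Rh4, Rh5, Rh6 and ninaE stayed below 1 CPM on average in both groups. The yolk protein and fat body list of 5 genes summed to 14.7 to 24.4 CPM in PCD-blocked antennae and 25.0 to 159 CPM in controls, with its highest value in control 1, and 2 of its 3 tested members passed (both lower, calls lost with DESeq2, without pair 1 and without pair 2). The 4 glial markers summed to 2940 to 3025 CPM in PCD-blocked antennae and 3469 to 3481 CPM in controls. Most of this sum was Gs2, which was lower (2788 CPM in PCD-blocked antennae and 3290 CPM in controls). The glial gene repo was higher (log2 fold change 0.34), and moody and Eaat1 did not pass. The 4 markers of Johnston's organ, the hearing organ of the antenna, summed to 459 to 524 CPM in PCD-blocked antennae and 442 to 448 CPM in controls. Most of that sum was btv, which did not pass, and nompC was higher (7.99 CPM in PCD-blocked antennae and 3.96 CPM in controls). The part that cells of these other kinds played in the receptor results was not tested.

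The comparison of PCD-blocked with control antennae asked how the receptors examined here change when cell death is blocked. All 5 fell in PCD-blocked antennae at an adjusted p under 0.05 (quasi-likelihood test of edgeR with sample pair as a block, Benjamini-Hochberg adjustment), against a background of 13.3% of all tested genes called lower and 14.3% called higher. The falls were modest, from 15.6% for Or22b to 30.5% for Or85b in mean level. Each gene was lower in PCD-blocked antennae in all 3 sample pairs, and for each the 3 PCD-blocked libraries lay below the 3 control libraries. Such separation in this direction was seen in 18.8% of all tested genes. In RNA from whole antennae, fewer neurons of a type and less receptor RNA in each neuron cannot be told apart. CPM is also relative to the other RNA of a library, so absolute amounts of receptor RNA were not measured.

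**Figure D1:**
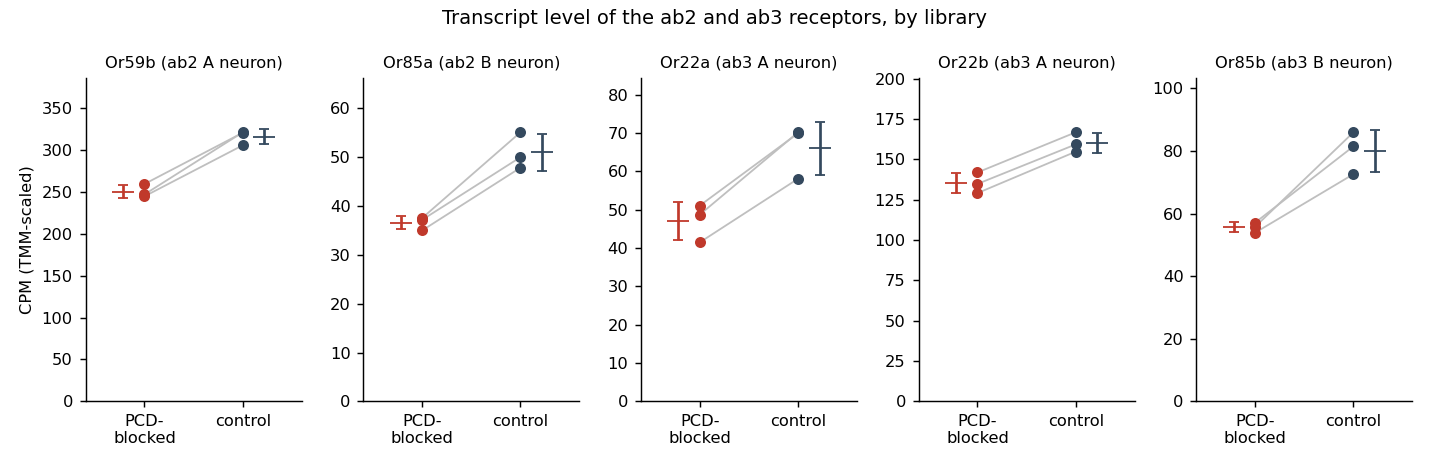
Level of each receptor in CPM (vertical axes, each from 0) in the 3 PCD-blocked and 3 control libraries. Points are libraries, grey lines join the libraries of a sample pair, and the horizontal marks with bars are means and SD. In every panel the PCD-blocked points lie below the control points, with the smallest gap relative to level for Or22b (129 to 142 CPM in PCD-blocked and 155 to 167 CPM in control libraries).

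In the ab2 sensillum, Or59b, the receptor of the A neuron, had 259, 247 and 245 CPM in PCD-blocked libraries 1 to 3, against 321, 321 and 306 CPM in control libraries 1 to 3. The highest PCD-blocked library lay 46.2 CPM under the lowest control. Its mean was 250.3 ± 7.87 CPM in PCD-blocked antennae and 316 ± 8.81 CPM in controls (SD, n = 3 each), a log2 fold change of -0.33 ± 0.03 (SE; edgeR adjusted p = 0.000126). These levels rested on 4070 or more counts in every library, where counting alone gives a relative error of at most 1.57%, against a coefficient of variation of 2.79% between control libraries.

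Or85a, a receptor of the ab2 B neuron, had 37.5, 37.2 and 35.0 CPM in PCD-blocked libraries 1 to 3, against 55.1, 50.0 and 47.8 CPM in control libraries 1 to 3. The PCD-blocked libraries were close together and the controls were more spread, with control 1 highest. The mean was 36.6 ± 1.37 CPM in PCD-blocked antennae and 51.0 ± 3.73 CPM in controls (SD, n = 3 each), a log2 fold change of -0.48 ± 0.05 (SE; edgeR adjusted p = 0.000160).

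In the ab3 sensillum, Or22a, a receptor of the A neuron, had 48.7, 51.1 and 41.5 CPM in PCD-blocked libraries 1 to 3, against 70.2, 70.0 and 58.1 CPM in control libraries 1 to 3. Pair 3 held the lowest library of both groups. Within pairs the PCD-blocked level was 69.4%, 73.0% and 71.4% of that of its control. The means were 47.1 ± 5.0 CPM in PCD-blocked antennae and 66.1 ± 6.92 CPM in controls (SD, n = 3 each), with a log2 fold change of -0.49 ± 0.04 (SE; edgeR adjusted p = 5.69e-05).

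Or22b, the tandem copy, had 142, 135 and 129 CPM in PCD-blocked libraries 1 to 3, against 167, 159 and 155 CPM in control libraries 1 to 3. It fell least of the ab2 and ab3 receptors examined here, by a similar proportion in each pair. The PCD-blocked level was 85.1%, 84.6% and 83.4% of the control level in pairs 1 to 3. The mean was 135 ± 6.44 CPM in PCD-blocked antennae and 160.3 ± 6.03 CPM in controls (SD, n = 3 each), a log2 fold change of -0.25 ± 0.03 (SE; edgeR adjusted p = 0.000586).

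Or85b, the receptor of the ab3 B neuron, had 55.8, 57.1 and 53.9 CPM in PCD-blocked libraries 1 to 3, against 86.0, 81.5 and 72.6 CPM in control libraries 1 to 3. The PCD-blocked libraries were nearly level while the controls ranged widely, so the size of the fall differed between pairs, at 64.9%, 70.1% and 74.3% of the control level in pairs 1 to 3. Its mean was 55.6 ± 1.61 CPM in PCD-blocked antennae and 80.0 ± 6.81 CPM in controls (SD, n = 3 each), the largest fall of the 5 in log2 terms, -0.52 ± 0.05 (SE; edgeR adjusted p = 6.77e-05).

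To compare levels between genes, CPM was divided by exonic length in kb. On this scale the order was Or59b, Or22b, Or85b, Or22a and Or85a in both groups. Or59b averaged 167 ± 5.25 CPM per kb in PCD-blocked antennae and 211 ± 5.88 CPM per kb in controls (SD, n = 3 each). Or22b averaged 104 ± 4.96 CPM per kb in PCD-blocked antennae and 123.5 ± 4.65 CPM per kb in controls. Or85b averaged 47.4 ± 1.38 CPM per kb in PCD-blocked antennae and 68.2 ± 5.81 CPM per kb in controls. The lowest levels were those of Or22a, at 33.2 ± 3.52 CPM per kb in PCD-blocked antennae and 46.5 ± 4.87 CPM per kb in controls, and of Or85a, at 30.6 ± 1.15 CPM per kb in PCD-blocked antennae and 42.7 ± 3.12 CPM per kb in controls, and these neighbours did not differ beyond their spread in either group. Of 51 antennal tuning receptor genes, Or59b was the most abundant per length in each control library and the next after Or92a, an ab1 receptor, in each PCD-blocked library. Or22b ranked 4 in each PCD-blocked library and 3 in each control library.

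The A and B neurons of a sensillum sit in the same hair, so their receptors were also compared as ratios of counts within a library, which do not depend on how libraries are scaled. The ratio of the ab2 A receptor Or59b to the ab2 B receptor Or85a was 6.91, 6.65 and 6.99 in PCD-blocked libraries 1 to 3, against 5.82, 6.42 and 6.39 in control libraries 1 to 3. All PCD-blocked libraries had the higher ratio, with a mean log2 difference of 0.14 and an SD of 0.10 over the 3 pairs. Within pairs 1 to 3 the log2 difference was 0.25, 0.05 and 0.13. The separation was narrow, at 6.65 in PCD-blocked library 2 against 6.42 in control library 2. Counting alone gives Or85a a relative error of up to 4.12%. How often ratios of other genes separate in this way was not tested. The ratio of the ab3 A receptors, Or22a and Or22b together, to the ab3 B receptor Or85b was 3.42, 3.25 and 3.17 in PCD-blocked libraries 1 to 3, against 2.76, 2.81 and 2.93 in control libraries 1 to 3. This ratio was also higher in all PCD-blocked libraries, with a mean log2 difference of 0.21 and an SD of 0.10 over pairs. Each of these differences had p = 0.10 in a two-sided exact permutation test over libraries, the smallest value that 3 libraries against 3 allow (0.20 adjusted over the 4 ratios tested), so this test could not call either ratio in this design.

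**Figure D2:**
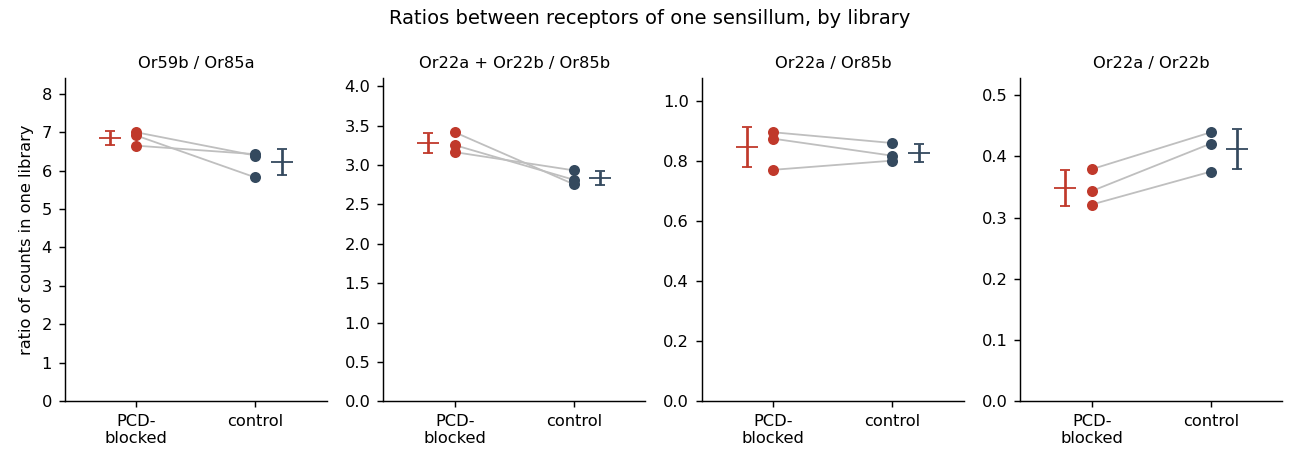
Ratio of the counts of receptors of 1 sensillum within a library (vertical axes, each from 0), in 3 PCD-blocked and 3 control libraries. Points are libraries, grey lines join sample pairs, and marks with bars are means and SD. The ratios of A to B receptors in the left panels are higher in all PCD-blocked libraries (6.65 to 6.99 and 3.17 to 3.42), while Or22a over Or85b overlaps between groups.

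Within ab3 the outcome depended on which A receptor was used. Or22a alone over Or85b was 0.873, 0.895 and 0.770 in PCD-blocked libraries 1 to 3, against 0.817, 0.859 and 0.800 in control libraries 1 to 3. These values overlapped, and the log2 difference was 0.10, 0.06 and -0.06 in pairs 1 to 3 (mean 0.03; p = 0.70, exact permutation test, two-sided). Or22a over Or22b, receptors of the same neuron, was 0.343, 0.379 and 0.321 in PCD-blocked libraries 1 to 3, against 0.421, 0.439 and 0.375 in control libraries 1 to 3. Or22a was therefore lower relative to Or22b in PCD-blocked antennae in all 3 pairs, by log2 differences of -0.29, -0.21 and -0.22, although the groups overlapped and the permutation test gave p = 0.20 (exact, two-sided; 0.27 adjusted over the 4 ratios). The part of read assignment between these similar copies was not tested. Taking the 3 ab3 genes together against both ab2 genes, the log2 ratio differed by -0.01 between the groups, with -0.05, 0.03 and -0.01 in the 3 pairs.

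The receptors were also set against other olfactory transcripts. Per count of Orco, the co-receptor of all Or neurons, Or59b stood at 0.0840, 0.0790 and 0.0794 in PCD-blocked libraries 1 to 3, against 0.106, 0.105 and 0.103 in control libraries 1 to 3. The mean log2 differences in the ratio to Orco were -0.38 for Or59b, -0.52 for Or85a, -0.53 for Or22a, -0.29 for Or22b and -0.56 for Or85b, with SDs over the 3 pairs of 0.03, 0.07, 0.04, 0.03 and 0.09. In each case the groups did not overlap, and each had the smallest p that the exact permutation test allows here (p = 0.10, two-sided, also after adjustment over the 5 ratios). Orco differed little between the groups, so these ratios largely repeat the comparison in CPM. There, separation in this direction was seen in 18.8% of all tested genes. The share of genes separated in their ratio to Orco was not computed. The 5 genes together made up 27.0%, 26.9% and 26.7% of the counts of 39 antennal Or genes in PCD-blocked libraries 1 to 3, against 34.2%, 35.0% and 34.5% in control libraries 1 to 3. The remaining antennal Or genes summed to 1427 ± 42.1 CPM in PCD-blocked antennae and 1274 ± 66.8 CPM in controls (SD, n = 3 each). The smaller share thus contained both lower levels of the 5 genes and a higher sum of the others. Those others did not all rise: Or42b averaged 110 CPM in PCD-blocked antennae and 16.3 CPM in controls, but Or43b averaged 104 CPM in PCD-blocked antennae and 147 CPM in controls.

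**Figure D3:**
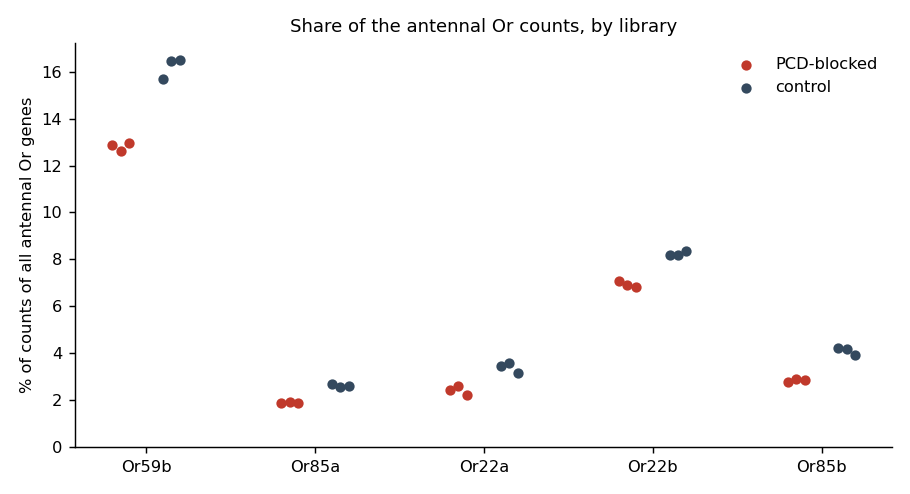
Share of the counts of 39 antennal Or genes (vertical axis, percent, from 0) taken by each ab2 and ab3 receptor examined here. Each point is a library, with PCD-blocked libraries left of controls. Or59b averages 12.8% in PCD-blocked libraries and 16.2% in control libraries, and no gene overlaps between groups. In CPM, separation in this direction was seen in 18.8% of all tested genes. The other antennal Or genes, which are part of the total, summed higher in PCD-blocked libraries.

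Set among the other receptors, the 5 genes were in the lower part of the range of fold changes. Ordered by log2 fold change, they took places 5 (Or85b), 7 (Or22a), 8 (Or85a), 12 (Or59b) and 16 (Or22b) of 49 tested receptors, counted from the most reduced. Their median log2 fold change was -0.48, against 0.00 over all tested genes. Of 5 listed ab1 genes, receptors of the other large basiconic sensillum considered here, 4 were tested, with a median log2 fold change of -0.20. Gr21a and Gr63a, which together detect carbon dioxide, were lower, Or42b was higher and Or92a did not pass. Or10a was listed at 0 in all libraries, for a reason that was not tested. Of 17 tested receptors of the ab4 to ab10 sensilla 7 passed as higher and 4 as lower, with a median of 0.03. Or33b, counted in this list, had the largest rise of the 49 tested receptors, a log2 fold change of 5.61. It averaged 8.865 ± 1.28 CPM in PCD-blocked antennae and 0.173 ± 0.115 CPM in controls (SD, n = 3 each). Of 12 trichoid and intermediate receptors 5 were higher and 1 was lower (median 0.07), and of 11 coeloconic receptors 3 were higher and 6 were lower (median -0.23). Over all tested genes, 14.3% were called higher and 13.3% lower. Among the 4 lower calls of ab4 to ab10, that of Or9a was lost with 7 of 10 alternative settings, and that of Or49b with DESeq2 and without pair 2.

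**Figure D4:**
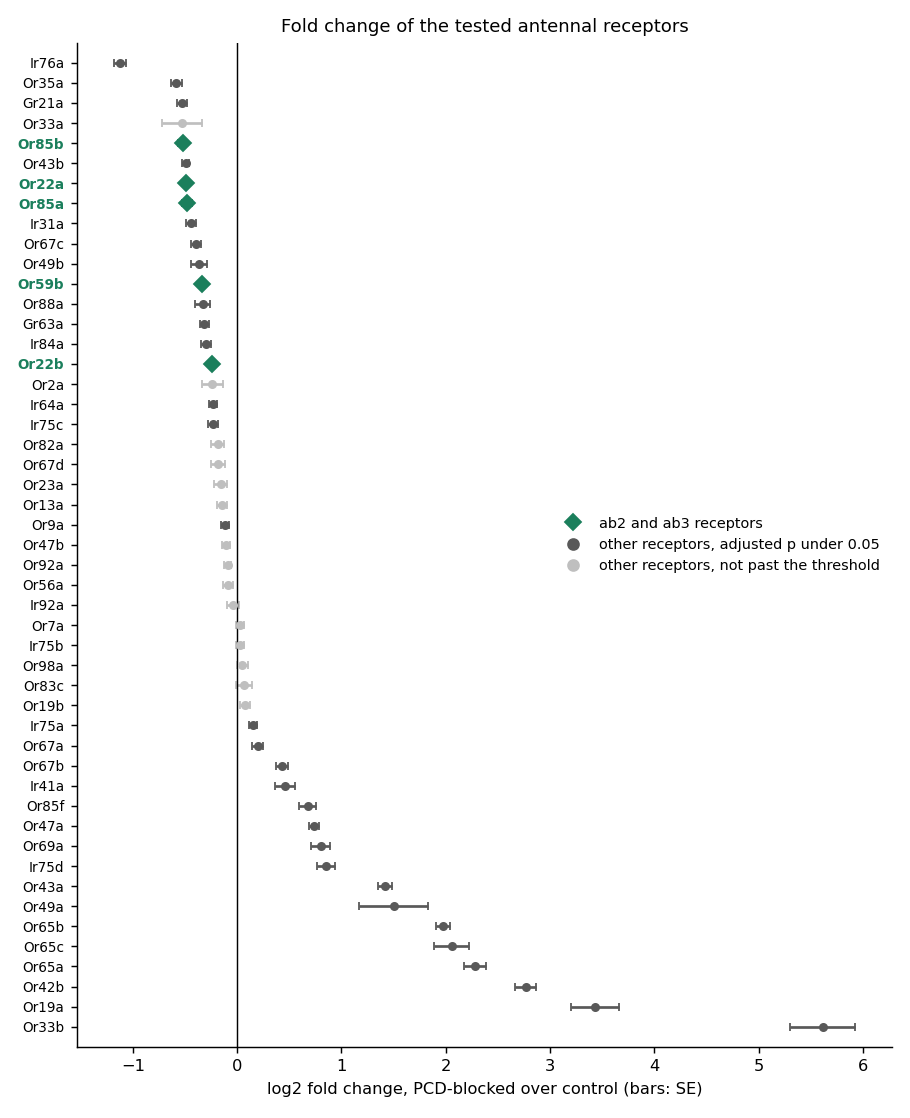
Log2 fold change, PCD-blocked over control, of 49 tested antennal receptor genes ordered from the most reduced at the top, with standard errors as bars. Green diamonds are the ab2 and ab3 receptors examined here, at -0.25 to -0.52. Grey points are other receptors, dark where the adjusted p is under 0.05.

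The receptors whose levels moved most like those of each gene over the 6 libraries were found by the root mean square difference of log2 CPM, after each gene was centred on its own mean, among 44 other receptors with at least 5 CPM. Or85b was closest to the ab1 carbon dioxide receptor gene Gr21a (0.02), then to Or35a (0.04) and Or85a (0.04). Or85a was closest to Or85b, then to Or43b of ab8 (0.05) and Gr21a (0.05). The nearest to Or22a were Gr21a (0.06), Or67c of ab7 (0.07) and Or43b (0.08). Or59b was nearest to Or22b (0.05), followed by Ir84a (0.05) and Gr63a (0.06), and Or22b to Or23a (0.05), Ir84a (0.05) and Or59b (0.05). The median distance to all 44 receptors was 0.14 to 0.23. The measure spans both groups, so it contains the fold changes given above and is not separate evidence of shared regulation. By this measure the B receptors Or85a and Or85b were close to each other, and so were Or59b and Or22b, the most abundant A receptors. The A receptor Or22a lay 0.08 from Or85b and 0.09 from Or85a, and Or59b also lay 0.09 from Or85a. Or22a and Or22b of the same neuron were further apart (0.16) than any other pair of the 5.

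Among the other Or genes named for the same cytological regions, most were barely detected. The gene next to Or85b, Or85c, averaged 0.179 CPM in PCD-blocked antennae and 0.192 CPM in controls, and Or85d averaged 0.330 CPM in PCD-blocked antennae and 0.0577 CPM in controls. The gene next to Or59b, Or59c, averaged 0.420 CPM in PCD-blocked antennae and 0.25 CPM in controls, and Or59a was listed at 0 in all libraries. Or22c averaged 0.0959 CPM in PCD-blocked antennae and 0.0193 CPM in controls. None of these was abundant enough to be tested. Of the other genes with an Or85 name, Or85e did not pass, and Or85f, the receptor of an ab10 neuron, was higher in PCD-blocked antennae, with 16.5 ± 1.41 CPM in PCD-blocked antennae and 10.3 ± 0.513 CPM in controls (SD, n = 3 each; log2 fold change 0.68 ± 0.08 SE, edgeR adjusted p = 0.000432).

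Genes that act with Or receptors were examined from lists of transduction genes and of regulators. Of 10 genes of transduction, 7 were tested: Snmp1, a CD36-family cofactor of pheromone reception, was higher (log2 fold change 0.38), Itpr, an intracellular calcium channel gene, was lower (-0.21), and Orco, ATP8B, Galphaq, norpA and rdgB did not pass. These shares, 1 of 7 in each direction, were close to the 14.3% higher and 13.3% lower over all tested genes. ATP8B, a lipid flippase needed for odorant responses, averaged 1234 ± 27.7 CPM in PCD-blocked antennae and 1180 ± 22.4 CPM in controls (SD, n = 3 each). The Itpr call was lost without pair 2 or pair 3. Of 10 regulators of receptor choice, 8 were tested, of which 3 were higher and 2 were lower, against the same 14.3% and 13.3% over all tested genes. The POU factor gene pdm3 was lower, with 111 ± 6.99 CPM in PCD-blocked antennae and 137 ± 8.29 CPM in controls (SD, n = 3 each; log2 fold change -0.30 ± 0.03 SE, edgeR adjusted p = 0.000261), and so was Eip93F (-0.14), a nuclear factor gene of the ecdysone response. The POU factor gene acj6 (0.16), Xbp1 (0.16), of the unfolded protein response, and onecut (0.11), a homeobox gene, were higher. Of these, the pdm3 call held in all 10 alternatives, while those of the others were lost in 1 (acj6) to 6 (onecut) of them.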

How the data were processed

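The authors deposited read counts, whole numbers per gene, in a separate table for each of the 6 libraries. Per the submitters' processing notes, the BDGP6 build was used with STAR 2.5.3a, cutadapt 1.8 and HTSeq 0.9.1. Settings, annotation release and strandedness of counting are not stated in those notes. Per the labels' protocols, poly(A) RNA and a directional kit were used. Rows that name no gene held 11.9% to 13.5% of counts and were left out. A total of 9181 genes passed edgeR's default filter by group and were tested in R 4.3.3 with edgeR 4.0.16 (quasi-likelihood, TMM scaling, sample pair as a block; threshold 0.05 after adjustment over all 9181). The design text calls the design paired, and same-numbered libraries deviated together (correlations 0.379, 0.240 and 0.521). The fit was tested on simulated data. Gene positions and exonic lengths came from Ensembl release 115. Libraries of the same genotype varied beyond counting noise (chi-square per degree of freedom 4.12 to 10.6). The labels call them biological replicates. The edgeR p-values weigh the group difference against the spread between these pools that is left after the pair block. Ratios were tested by exact permutation in SciPy 1.17.1. Alternatives were DESeq2 1.42.0, limma-voom (limma 3.58.1), other scalings and filters, no block, and each pair left out. The genes and lists were chosen with earlier results of these data known. The named genes are the 5 receptors, list members past the threshold or of the same sensillum, cluster or neuron type, and the 3 nearest receptors of each; host genes, Poxm and CG43795, and single genes given as not passing were named after their values were seen.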

Additional observations from a re-analysis of the deposited data

How the results depend on the processing

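All 5 receptors stayed lower and past the threshold in all 10 alternatives to the fit, with adjusted p up to 0.0125 (Or22b without pair 2, edgeR). Over these alternatives the log2 fold change was -0.35 to -0.31 for Or59b, -0.50 to -0.44 for Or85a, -0.51 to -0.47 for Or22a, -0.26 to -0.24 for Or22b and -0.57 to -0.48 for Or85b. With no replicate block the log2 fold changes were -0.33, -0.48, -0.49, -0.25 and -0.53 in that order, and the lack of the pairing changed no receptor call. The number of genes called among all tested depended more on the setting: 1225 lower and 1314 higher, against 662 lower and 653 higher with DESeq2 and, with 1 pair left out, 728 (without pair 2) to 1006 lower and 753 (without pair 2) to 1065 higher. The cause was not tested. With DESeq2 the receptor calls were 5 higher and 2 lower for ab4 to ab10 and 1 higher and 4 lower for coeloconic sensilla, the trichoid and intermediate call of Or88a was lost, and the regulators had 1 higher and 2 lower. Relative to the other antennal Or genes in place of Orco, the log2 differences were larger, at -0.50 for Or59b, -0.64 for Or85a, -0.65 for Or22a, -0.41 for Or22b, -0.69 for Or85b and -0.52 for the sum of the 5 (-0.40 relative to Orco), because the other Or genes together were higher in PCD-blocked antennae while Orco did not pass. For the ratios, pairing by an exact sign-flip test gave p = 0.25 at the least, which is the smallest value 3 pairs allow. Scaling moved the median of all genes by under 0.1 on the log2 scale. With 3 libraries a group, these exact tests could not pass the threshold for any ratio, so they do not bear on whether the ratios differed.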
